A study of Mus musculus with 6 samples.

Results

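The piRNA cluster on mouse chromosome 5 that contains the non-coding gene 1700016C19Rik spans chr5:113316068-113373001 (56934 bases, build GRCm38). It is 1 of 773 clusters in a deposited table of piRNA counts, and its members are all entries of that table whose names carry this cluster. There are 260573 such entries of 9924085, at 113519 different places (1 place is 1 position, strand and length), and 54852 of these places had at least 1 count in any library. The cluster was chosen by its high counts in these libraries and with earlier results on its total known, so its level and total change are given as a description. It ranked second by mean share of the table, at 5.69%, 5.62% and 5.72% in the Miwi KO libraries and 5.42%, 5.32% and 5.47% in the WT libraries.

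Small RNAs were sequenced from round spermatids, the haploid cells made by meiosis before they elongate into sperm, purified from testes at postnatal day 21. The Miwi KO group holds 3 libraries from mice of a global Miwi knockout line and the WT group 3 libraries from wild-type mice, all on the C57BL/6 background (C57BL/6J in the labels' protocol). The knockout line was recovered from frozen sperm and, per the design text, its spermatids do not develop past the early round stages. The labels do not say that each library is a separate animal, so each p-value measures only how far these samples spread, and that spread may be technical. The comparison addressed whether the pachytene piRNA profile differs in round spermatids without MIWI.

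Piwi-interacting RNAs (piRNAs) are small RNAs of germ cells that guide PIWI proteins. In the mouse testis, pachytene piRNAs are cut from long single-stranded transcripts of a set of genomic clusters, many of which are transcribed in both directions from 1 shared promoter under the transcription factor A-MYB. A piRNA keeps the 5′ end set by its first cut, usually a U, and its 3′ end is trimmed back to the part that the PIWI protein covers. MILI (PIWIL2) usually holds RNAs of 25-28 nt and MIWI (PIWIL1) RNAs of 29-32 nt, so the length of a piRNA reflects its partner.

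The sequences below show RNAs of the cluster whose main form differed in length between the genotypes. They are the WT main forms of 30 nt at 4 of the 5′ ends in the exon of Gm43353 (minus strand of the cluster). These ends had at least 50 counts in each genotype and a main form that is shorter in Miwi KO libraries. They were chosen for that difference and illustrate it. Not every high end of the exon is shown, such as 113324814, with 410 counts in Miwi KO and 2561 in WT in sum. Capitals mark the 3′ bases that the Miwi KO main form lacks. Letters are those of the GRCm38 exon (GENCODE), 5′ to 3′, named by the position of the 5′ end, with T for U.
piRNA 113325029: tgagatccacaggtaaacctatctgaAAAC
piRNA 113325024: tccacaggtaaacctatctgaaaacacccT
piRNA 113324840: tgaatgtttacagggagacagagcttTAAC
piRNA 113324727: tgtagcttcagcagaattatcttccctCAC
The first lies at chr5:113325000-113325029, the second at chr5:113324995-113325024, the third at chr5:113324811-113324840 and the fourth at chr5:113324698-113324727. At 113325029 the 30 nt form had 6, 2 and 11 counts in Miwi KO libraries and 149, 113 and 321 in WT libraries, and the 26 nt form 10, 11 and 25 in Miwi KO and 15, 15 and 13 in WT. At 113325024 the forms differ by 1 nt, with 7, 3 and 12 counts of the 30 nt form in Miwi KO and 153, 176 and 228 in WT, and 9, 6 and 12 counts of the 29 nt form in Miwi KO and 26, 47 and 32 in WT. At 113324840 the 26 nt form had 36, 26 and 44 counts in the Miwi KO libraries and 25, 16 and 21 in the WT libraries, and the 30 nt form had 0, 1 and 0 counts in Miwi KO and 25, 27 and 54 in WT. At 113324727 the 27 nt form had 43, 22 and 39 counts in Miwi KO and 15, 17 and 20 in WT, and the 30 nt form 0, 0 and 0 in Miwi KO and 21, 16 and 27 in WT. The long form was thus at 0 or 1 count in Miwi KO at 113324840 and 113324727, less frequent than the short form at 113325029, and about as frequent as the short form at 113325024. All 4 begin with T.

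The piRNA table held between 1009902 and 1785660 counts per Miwi KO library and between 4059156 and 6623310 per WT library. Counts of miRNAs overlapped, with 146487 to 243655 per Miwi KO library and 179761 to 246030 per WT library. The cluster had 100882, 56749 and 102067 counts in the Miwi KO libraries and 220216, 231719 and 362053 in the WT libraries. Germ cell miRNAs (miR-34b-5p, miR-34c-5p and miR-449a-5p, 3 of 3 found) summed to 29.6% to 33.5% of miRNA counts in Miwi KO and 27.4% to 29.1% in WT. Markers of other testis cells (miR-202-5p, miR-143-3p, miR-126a-3p and miR-451a, 4 of 4 found, none at 0) summed to 1.55% to 1.62% in Miwi KO and 1.91% to 2.21% in WT. The sums of both lists differed without overlap of the libraries, and their part in the results was not tested. Taken singly, miR-34b-5p, miR-202-5p and miR-126a-3p overlapped between the genotypes, and the other markers did not. The targeted mRNA cannot be read from small RNA counts, so it gives no check of the genotypes here.

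The RNAs of the cluster were shorter in Miwi KO spermatids, by 2.65 nt on average. The mean length was 26.9 nt ± 0.0944 in Miwi KO and 29.6 nt ± 0.0652 in WT (SD, n = 3 each). The length with the most counts was 27 nt in all Miwi KO libraries and 30 nt in all WT libraries. The 27 nt RNAs made up 23.6%, 23.7% and 23.3% of cluster counts in Miwi KO and 5.11%, 5.34% and 4.94% in WT. The 30 nt RNAs made up 6.46%, 6.22% and 7.05% in Miwi KO and 28.1%, 28.3% and 27.9% in WT. Shares of every length from 18 to 28 nt were higher in Miwi KO and those of every length from 29 to 34 nt lower, with no overlap between the genotypes at any length. The change of direction fell between 28 nt, at 16.5% ± 0.589 in Miwi KO and 6.84% ± 0.198 in WT, and 29 nt, at 10.7% ± 0.669 in Miwi KO and 15.7% ± 0.260 in WT (SD, n = 3).

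**Figure D1:**
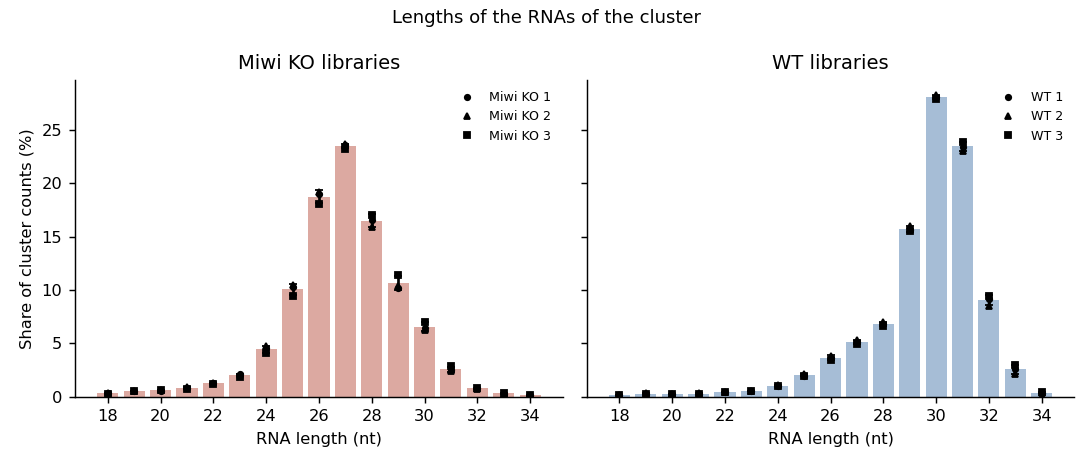
Share of cluster counts (%) at each RNA length from 18 to 34 nt, with Miwi KO on the left and WT on the right. Bars are means, error bars SD, and symbols the 3 libraries. Miwi KO peaks at 27 nt and WT at 30 nt in each library.

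Of the 25-32 nt counts, RNAs of the MIWI length (29-32 nt) made up 22.4%, 22.1% and 24.7% in Miwi KO libraries and 81.3%, 80.5% and 81.9% in WT libraries. The genotypes did not overlap (difference -58.1 percentage points, exact two-sided permutation p = 0.1, the smallest that 3 against 3 libraries allow). The same share in the rest of the table was 21.5%, 21.3% and 23.3% in Miwi KO and 80.8%, 80.1% and 81.3% in WT. The cluster lay above the rest of the table by 0.823, 0.803 and 1.34 percentage points in Miwi KO libraries and by 0.485, 0.355 and 0.597 in WT libraries, without overlap (exact permutation p = 0.1). Among the 3 clusters closest in mean count level, those at 2:92536004-92613016, 18:67028034-67088022 and 6:127778004-127842026, the share averaged 21.3%, 22.9% and 22.5% in Miwi KO and 81.6%, 84.9% and 83.2% in WT (n = 3). The difference between genotypes was thus smaller in the 1700016C19Rik cluster than in each, by 2.09, 3.83 and 2.60 percentage points (exact permutation p = 0.1 for each).

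Relative to miRNAs, the long class was scarce in Miwi KO and the short class was slightly more abundant. The 29-32 nt RNAs of the cluster had 8.59, 7.63 and 9.30 counts per 100 miRNA counts in Miwi KO libraries and 93.5, 89.7 and 112.9 in WT libraries, 11.6-fold lower in Miwi KO. The 25-28 nt RNAs had 29.8, 26.8 and 28.4 in Miwi KO and 21.6, 21.8 and 25.01 in WT, 1.24-fold higher in Miwi KO. Neither class overlapped between the genotypes (exact permutation p = 0.1 for each), and the gain of the short class was 5.58 counts against a loss of 90.2 counts in the long class. RNAs of 18-24 nt overlapped, at 4.14 ± 0.227 in Miwi KO and 3.94 ± 0.296 in WT (SD, n = 3, exact permutation p = 0.4). In these bulk samples, fewer cells that make the RNA and less RNA per cell cannot be told apart.

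With library totals scaled by the TMM factors of all clusters in edgeR, the log2 change of the cluster (Miwi KO over WT) was -2.87 for 29-32 nt and 0.98 for 25-28 nt, and -0.98 over all lengths. Of all clusters tested, 70.4% were lower in 29-32 nt, 45.9% higher in 25-28 nt and 31.1% lower over all lengths. The total depends on the scale. It was -1.53 when scaled to miRNAs and 0.07 with library size alone, where the median cluster was at -0.55 and 1.05, against 0.00 with TMM factors. The long class was at -3.42 when scaled to miRNAs, -1.82 with library size, -1.08 with TMM factors of its own sums and -1.33 in the DESeq2 test, and the short class at 0.43, 2.03, 0.57 and 0.56 on these scales. The directions of both classes were thus the same on each scale, and their sizes were not.

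The cluster consisted of 2 arms that run apart from a shared start. The arms were divided at the point with the most counts on the minus strand left of it and on the plus strand right of it. Left of this point, RNAs of the minus strand had 5′ ends between 113319588 and 113340108. Right of it, RNAs of the plus strand had them between 113340133 and 113372513, counting 5′ ends with at least 10 counts. The gap between the arms was 25 bases. Counts off the arms (plus strand left of the gap or minus strand right of it) were 0.126%, 0.174% and 0.298% of the cluster in Miwi KO and 0.205%, 0.167% and 0.194% in WT. The highest bin off the arms, on the plus strand at chr5:113337001-113338000, had 20, 24 and 192 counts in Miwi KO libraries and 101, 55 and 171 in WT libraries, most of them at a single 20 nt place. The short distance between the arms is the layout of a cluster with a bidirectional promoter, whose sequence was not used here.

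The plus arm was the larger and took a smaller part of the cluster in Miwi KO. It held 56.7%, 57.5% and 56.8% of cluster counts in Miwi KO libraries and 65.8%, 65.4% and 65.2% in WT libraries (difference -8.48 percentage points, no overlap, exact permutation p = 0.1). The difference was -8.12 points within 29-32 nt and -4.24 points within 25-28 nt. Without the highest 5′ end of the cluster, which lies on the plus arm, it was -7.10 points, and with each place counted once it was -2.44 points. The share of the MIWI length was 23.6% ± 1.59 on the plus strand and 22.4% ± 1.16 on the minus strand in Miwi KO, and 82.5% ± 0.648 on the plus strand and 78.7% ± 0.806 on the minus strand in WT (SD, n = 3). The strands of the 3 compared clusters were unequal in other ways, with mean plus shares of 99.7%, 6.30% and 82.8% in Miwi KO and 99.7%, 3.14% and 78.1% in WT.

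The lower plus share in Miwi KO lay in the part of the arm from the start of 1700016C19Rik on, mostly within this gene. This gene (RefSeq non-coding RNA, chr5:113349892-113357123) held 24.1%, 25.2% and 24.2% of cluster counts on the plus strand in Miwi KO libraries and 35.2%, 36.0% and 33.6% in WT libraries. The plus arm before the gene held 32.1%, 31.7% and 31.9% in Miwi KO and 29.1%, 27.9% and 30.1% in WT. Summed over each part, the difference thus ran in opposite directions in the gene and in the arm before it, each time without overlap (exact permutation p = 0.1 for the arm before the gene). The arm before the gene was not uniform. Its 5′ end at 113348949, the highest of the cluster, had 3.54 per 1000 cluster counts in Miwi KO and 42.6 in WT (means, n = 3). Aym1, the protein-coding gene after it (plus strand, chr5:113357294-113357821), held 0.126%, 0.141% and 0.129% in Miwi KO and 0.351%, 0.314% and 0.325% in WT. On the minus arm, 4930405N21Rik (minus strand, chr5:113320454-113321653) held 1.76% in Miwi KO and 0.762% in WT, and the exon of Gm43353 (annotated on the plus strand, chr5:113324186-113325480) held 1.92% of cluster counts on the opposite, minus strand in Miwi KO and 2.03% in WT (means, n = 3).

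**Figure D2:**
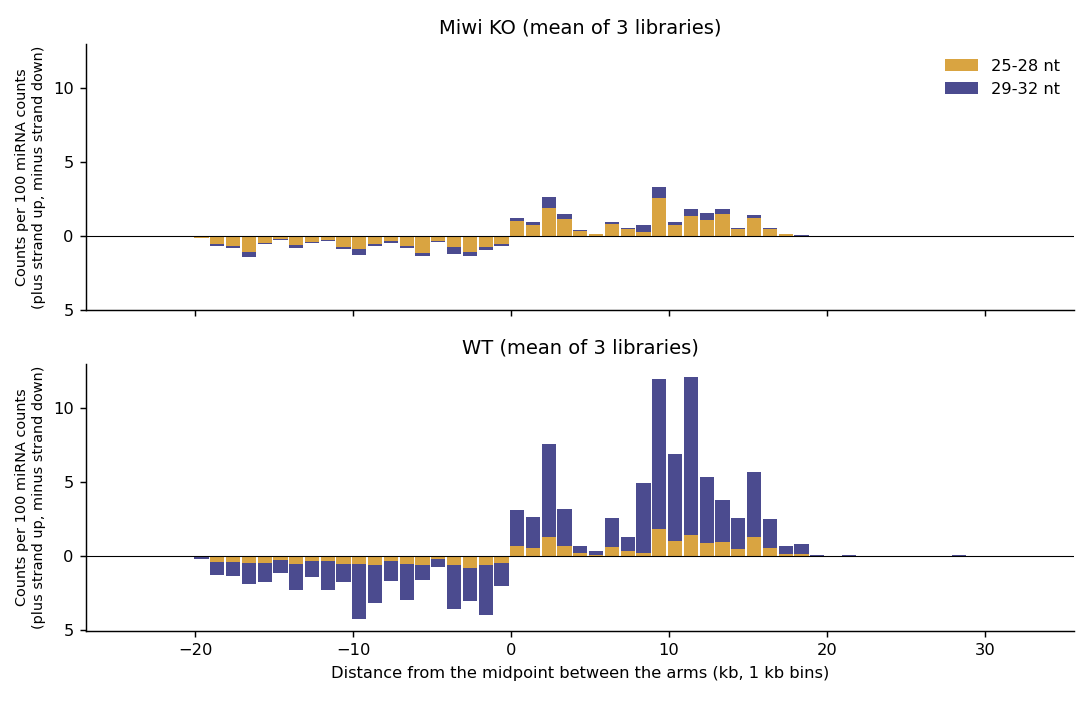
Mean counts per 100 miRNA counts in 1 kb bins along the cluster, Miwi KO above WT on the same axis, against the distance in kb from the midpoint between the arms. Bars go up for the plus strand and down for the minus strand, with 25-28 nt in ochre and 29-32 nt in blue. The highest WT bins lie 9 to 12 kb into the plus arm and consist mostly of 29-32 nt RNAs, which are few in Miwi KO.

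All 53 bins of 1 kb tested for 29-32 nt were lower in Miwi KO (edgeR adjusted p under 0.05), where 87.4% of all bins in the table were lower. Their median log2 change was -3.02, against -2.98 over all bins. With TMM factors taken from all 2509 long bins of the table, which centre the long class near 0, 18 of the 53 were higher and 20 lower (16 and 21 in the DESeq2 test). Over all 2509 bins, 905 were higher and 977 lower (881 and 940 in the DESeq2 test), so the cluster lay near the whole table. The fall of the 53 bins was thus seen relative to the piRNA table and to miRNAs and not relative to other long piRNAs. Of 46 bins tested for 25-28 nt, 38 were higher in Miwi KO, where 52.6% of all bins were higher, and 5 were lower, where 16.4% of all bins were. The split was 28 higher and 9 lower when scaled to miRNAs, 31 and 12 with factors taken from all short bins of the table, and 40 and 1 with library size alone. Over all 2887 bins tested, these scales gave 823 higher and 855 lower, 881 and 891, and 2467 and 140. With library size alone the cluster thus lay near the whole table. One of the long bins lay on the minus strand off the arms, chr5:113345001-113346000, with 0, 0 and 3 counts of all lengths in Miwi KO and 23, 18 and 32 in WT, and no 29-32 nt count in Miwi KO. The median of the cluster's short bins was 0.93, against 0.54 over all bins.

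The highest bin, chr5:113349001-113350000 on the plus strand around the start of 1700016C19Rik, had 9300, 5185 and 9209 counts in Miwi KO libraries and 23023, 22838 and 33323 in WT libraries. Its log2 change was -3.03 ± 0.12 for 29-32 nt and 1.11 ± 0.06 for 25-28 nt (SE). The next, chr5:113351001-113352000, had 4697, 2731 and 4662 counts in Miwi KO and 21320, 23060 and 34025 in WT, with changes of -3.96 ± 0.13 and 0.60 ± 0.06. The short value was 0.05 when scaled to miRNAs and did not pass (edgeR adjusted p = 0.718). The third, chr5:113342001-113343000, changed by -2.50 and 1.18, and the highest minus bins, chr5:113330001-113331000, chr5:113336001-113337000 and chr5:113338001-113339000, by -2.56, -2.14 and -3.09 in the long class and 1.52, 1.11 and 0.89 in the short class.

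Past 1700016C19Rik and Aym1, the far end of the plus arm had the lowest changes of short RNAs among the tested bins of the cluster. This tail was chosen after its values were seen. It is the part from chr5:113358001 on, the first bin whose short class was lower in Miwi KO (edgeR adjusted p under 0.05, TMM factors of all clusters). It held 0.280%, 0.270% and 0.267% of cluster counts in Miwi KO libraries and 1.05%, 1.12% and 0.981% in WT libraries, which are 283, 153 and 273 counts in Miwi KO and 2321, 2593 and 3551 in WT. Its 25-28 nt RNAs were at 0.0705 ± 0.00321 counts per 100 miRNA counts in Miwi KO and 0.316 ± 0.0143 in WT (SD, n = 3), while those of the plus arm before it were at 16.0 ± 0.738 in Miwi KO and 13.5 ± 1.12 in WT, and those of the minus arm at 12.3 ± 0.761 in Miwi KO and 8.93 ± 0.804 in WT. The first bin of the tail had 88, 43 and 91 counts in Miwi KO and 1468, 1527 and 2077 in WT, and its short class changed by -2.41 ± 0.13 (SE). That of the bin before it changed by 0.00 ± 0.09 and did not pass (edgeR adjusted p = 0.987). Scaled to miRNAs these 2 bins were at -2.96 and -0.55, and both were lower in Miwi KO (edgeR adjusted p = 2.23e-84 and 7.54e-06), at 0.0202 and 0.100 short counts per 100 miRNA counts in Miwi KO and 0.174 and 0.160 in WT. Of 7 tail bins tested for the short class, 5 were lower in Miwi KO and 0 higher, with log2 changes between -2.41 and -0.17. By the choice of the tail, no bin before it could be called lower with TMM factors of all clusters. Scaled to miRNAs, all 7 tail bins were lower, between -2.96 and -0.73, as were 2 of 18 short bins of the plus arm before the tail and 0 of 21 of the minus arm. With library size alone, 1 tail bin was lower and 1 higher. Without the first bin, the short class of the tail was at 0.0503 ± 0.000223 in Miwi KO and 0.141 ± 0.0105 in WT (SD, n = 3). The share of the MIWI length within the tail was 26.4% ± 2.16 in Miwi KO and 75.9% ± 0.571 in WT, so the shift in length was present there too. With TMM factors of all clusters, the short bins ranged from 0.00 to 1.40 on the plus arm before the tail and from 0.34 to 1.92 on the minus arm.

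**Figure D3:**
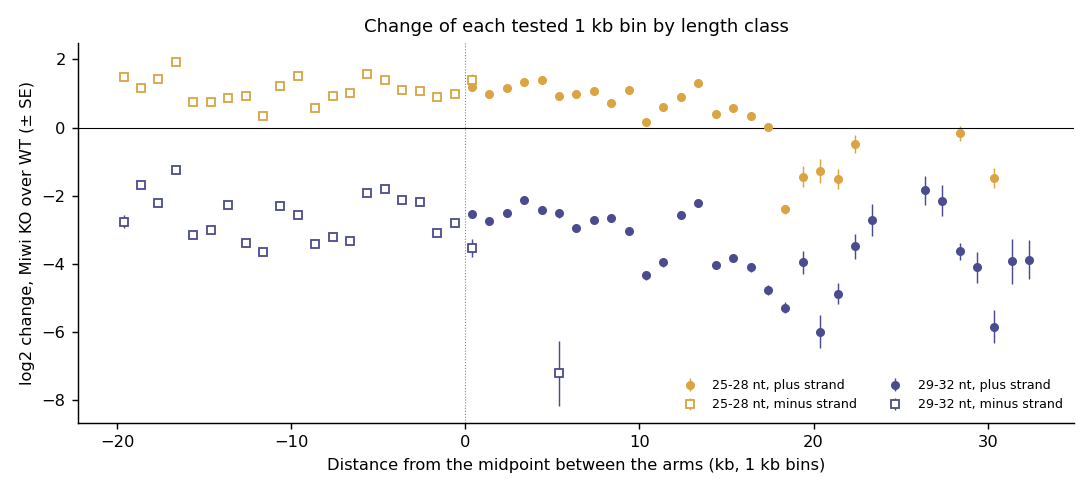
Log2 change (Miwi KO over WT, edgeR with TMM factors of all clusters, ± SE) of each tested 1 kb bin against its distance in kb from the midpoint between the arms, for 25-28 nt (ochre) and 29-32 nt (blue) and for the plus (filled) and minus (open) strand. All 53 long bins lie below 0, and on this scale the short bins lie at or above 0 up to 17 kb into the plus arm and below 0 in the tail. The lowest long bin has no 29-32 nt count in Miwi KO, so the size of its change is no estimate. With TMM factors of all long bins of the table, 18 long bins of the cluster are higher and 20 lower, against 905 and 977 of 2509 over the whole table.

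Single RNAs were followed by their 5′ ends, since trimming moves the 3′ end. Miwi KO libraries had 1016 5′ ends with at least 50 counts in sum and WT libraries 2122, and 894 were in both sets, 88.0% of the Miwi KO ends and 42.1% of the WT ends. WT libraries held more counts, so more of their ends could reach the minimum. At these shared ends the mean length in Miwi KO differed from that in WT by a median of -1.81 nt, with quartiles at -2.63 and -1.03 nt. It was shorter in Miwi KO at 485 of 510 plus ends and 375 of 384 minus ends, longer at 22 plus and 9 minus ends, and equal at 3. The per-library mean over these ends was 27.0, 26.9 and 27.0 nt in Miwi KO and 28.8, 28.7 and 28.9 nt in WT. The ends are not independent replicates, so no test was made over them.

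**Figure D4:**
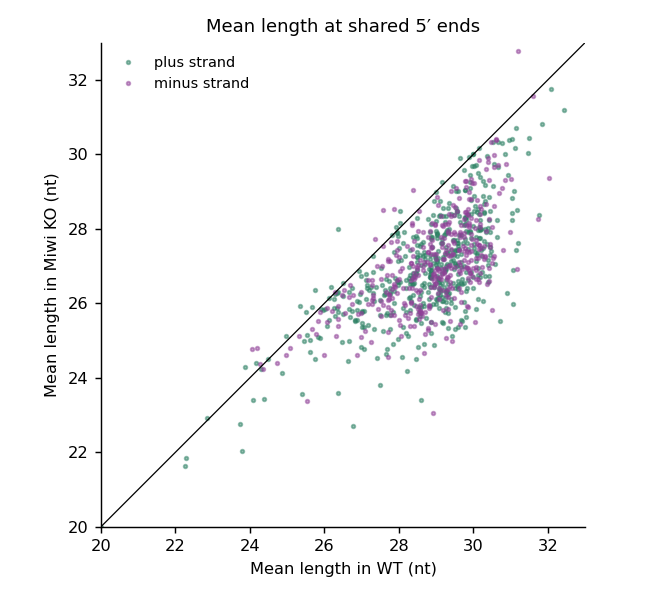
Mean RNA length (nt) in Miwi KO libraries against that in WT libraries at the 894 5′ ends with at least 50 counts in each genotype. Each point is 1 end, colored by strand, and the line marks equal lengths. Most points lie below the line (860 of 894).

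The use of 5′ ends differed between genotypes beyond length. The overlap of 2 libraries was measured as the sum over ends of the smaller of their shares. It was between 81.1% and 82.6% among Miwi KO libraries for 25-28 nt and between 86.7% and 89.0% among WT libraries for 29-32 nt. Between the genotypes, the 25-28 nt profile of Miwi KO shared 63.9% to 66.0% with the 25-28 nt profile of WT and 41.5% to 43.2% with the 29-32 nt profile of WT. Within WT, the short and the long profile shared 48.7% to 51.3%. The short RNAs of Miwi KO thus lay nearer to the short RNAs of WT than to the long ones, in all 9 pairs of libraries, and depth enters these values because shallower profiles overlap less. The ends that held 50% of the counts numbered 319, 314 and 291 in Miwi KO libraries and 199, 231 and 223 in WT libraries. Ends with any count numbered 8246, 6496 and 8266 in Miwi KO and 9442, 9760 and 11519 in the WT libraries, which held more cluster counts. The 10 highest ends of each library held 8.37%, 8.397% and 8.94% of its cluster counts in Miwi KO and 15.1%, 12.7% and 14.4% in WT.

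The 8 highest 5′ ends by mean share show both kinds of change. The mean was taken over both genotypes, so an end high in WT alone could enter. Its lower share in Miwi KO is then in part set by the choice. The highest, at 113348949 on the plus strand, 8816 bases into the arm, had 333, 189 and 406 counts in Miwi KO libraries and 9629, 6904 and 19658 in WT libraries, or 3.30, 3.33 and 3.98 per 1000 cluster counts in Miwi KO and 43.7, 29.8 and 54.3 in WT. Its RNAs were of 31 to 33 nt in WT, and the 31 nt form also led in Miwi KO, with 165, 79 and 220 counts, against 4408, 3407 and 9634 in WT. It thus fell as a whole (log2 change of the 31 nt form -4.55 ± 0.30 SE, edgeR adjusted p = 4.96e-51) while its mean length was 30.4 nt in Miwi KO and 31.5 nt in WT. The next base, 113348950, looked at after its values were seen, carried RNAs of 30 nt with 442, 190 and 549 counts in Miwi KO and 73, 58 and 127 in WT. In Miwi KO the start 1 base further on was thus the more used of this pair, and in WT it was rare.

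At 113349063, the end with the second highest share, the same start carried shorter RNAs in Miwi KO. Its counts were 1179, 647 and 945 in Miwi KO and 3231, 3227 and 4095 in WT. The 27 nt form had 404, 223 and 271 counts in Miwi KO and 87, 74 and 119 in WT (log2 change 2.35 ± 0.22 SE), and the 31 nt form 46, 25 and 43 in Miwi KO and 1098, 1212 and 1367 in WT (-4.38 ± 0.27 SE). At 113330339 on the minus strand the 27 nt form had 415, 186 and 343 counts in Miwi KO and 19, 46 and 28 in WT (3.96 ± 0.25 SE), while the 30 nt form had 253, 119 and 200 in Miwi KO and 553, 643 and 858 in WT (-1.20 ± 0.22 SE). With library size alone this 30 nt form was at -0.15 and did not pass (edgeR adjusted p = 0.461). At 113342327 on the plus strand the 28 nt form led in Miwi KO with 483, 312 and 652 counts, against 179, 186 and 205 in WT (1.97 ± 0.22 SE), and the 31 nt form had 2, 2 and 9 counts in Miwi KO and 520, 521 and 720 in WT (-6.40 ± 0.33 SE). Each of these ends stayed in use in Miwi KO with a main form 3 or 4 nt shorter. As a share of cluster counts, 113330339 was at 12.5, 10.5 and 10.1 per 1000 in Miwi KO and at 6.59, 6.80 and 6.04 per 1000 in WT. The end at 113342327 was at 7.12, 8.46 and 9.52 per 1000 in Miwi KO and at 5.94, 5.67 and 4.83 per 1000 in WT. Both thus held a larger share of the cluster in Miwi KO, without overlap of the libraries.

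The other 4 ends were lower in share as well as in mean length, and high WT shares brought them into the list. The minus end 113323851, outside the list, had 2953 counts in Miwi KO and 341 in WT in sum. The adjacent plus ends 113349926 and 113349925 had 5.28 ± 0.983 and 2.35 ± 0.451 per 1000 cluster counts in Miwi KO and 14.8 ± 2.50 and 13.9 ± 1.45 in WT (SD, n = 3), and their mean lengths were 28.3 and 29.1 nt in Miwi KO and 29.8 and 29.9 nt in WT. The minus end 113330135 had 3.26 ± 0.539 in Miwi KO and 12.9 ± 1.25 in WT. The plus end 113351252 had 2.89 ± 0.145 in Miwi KO and 11.6 ± 1.97 in WT. There the 30 nt form had 31, 24 and 58 counts in Miwi KO and 1741, 2089 and 2110 in WT, and the 26 nt form 54, 40 and 66 in Miwi KO and 48, 65 and 67 in WT (0.49 ± 0.25 SE, edgeR adjusted p = 0.0476). This 26 nt value turned to -0.05 when scaled to miRNAs and to -0.14 in the DESeq2 test, and did not pass in either (edgeR adjusted p = 0.850 and DESeq2 adjusted p = 0.640). It also failed to pass without Miwi KO replicate 2 or 3 or WT replicate 1 or 3, with edgeR adjusted p between 0.0811 and 0.164.

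**Figure D5:**
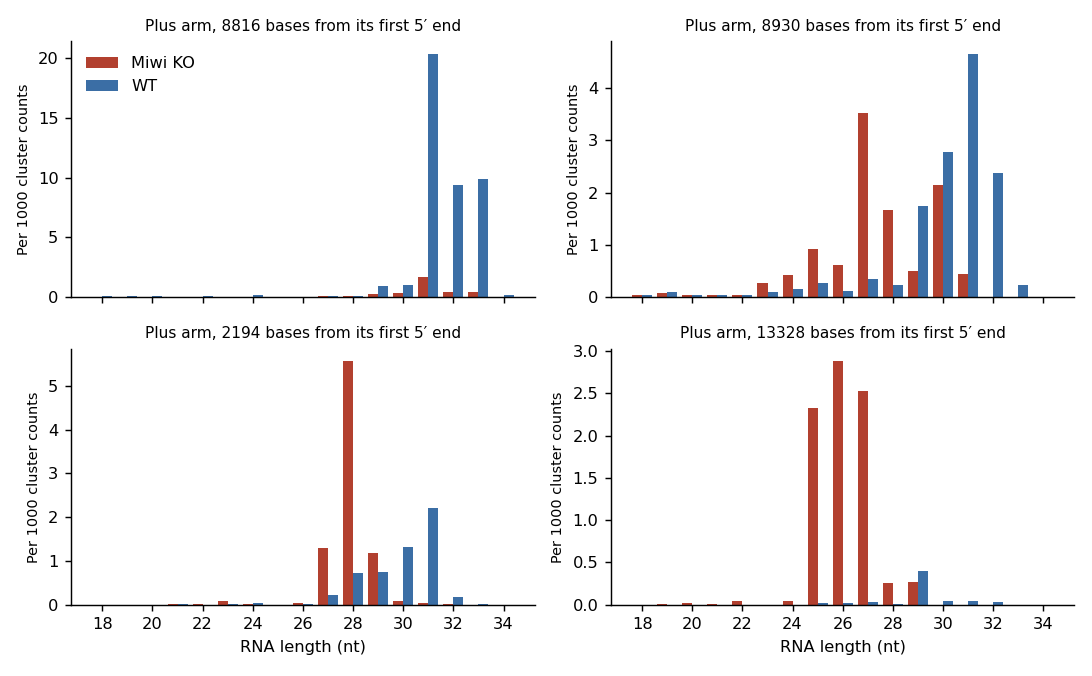
Counts per 1000 cluster counts at each RNA length for 4 plus-arm 5′ ends, named by their distance in bases from the first 5′ end of the arm, with Miwi KO bars left of WT bars (means of 3 libraries). At 8816 bases the 31 nt form leads in both genotypes. At 8930 and 2194 bases the main form is 27 and 28 nt in Miwi KO and 31 nt in WT, and at 13328 bases the 25 to 27 nt forms are nearly all in Miwi KO.

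Across all places of 1 position, strand and length, 3394 passed the filter on low counts, of which 1064 were higher and 2042 lower in Miwi KO (edgeR adjusted p under 0.05). Of all places tested, 27.4% were higher and 65.2% lower. Scaled to miRNAs, 802 were higher and 2133 lower, and the DESeq2 test gave 622 and 2113. Over all 59597 places tested, these gave 12827 higher and 40309 lower, and 10286 and 40010. The direction followed the length, as in the table at large. Of 298 tested places of 26 nt, 261 were higher and 6 lower, where 87.0% and 3.23% of all tested places of this length were. At 28 nt 178 of 347 were higher and 90 lower, where 50.6% and 29.5% of all were. At 29 nt 70 of 531 were higher and 401 lower, where 11.9% and 77.2% of all were, and of 566 places of 31 nt, 4 were higher and 556 lower, where 0.558% and 98.3% of all were. Among 603 places with at least 200 counts in WT, 105 had no count in any Miwi KO library, and 101 of these were of 29-32 nt. Of 872 places with at least 50 counts in Miwi KO, 0 lacked a count in WT. The piRNA counts per library differ in the same direction as these last counts, and their minimums differ. The same counts over the whole table were not made, so these values are not shown to be particular to this cluster.

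The 4 largest falls were all of places with 0 counts in Miwi KO. They passed the filter on low counts through the WT libraries alone. They were picked as the largest falls among places with no overlap between the genotypes, so the separation of their libraries and the size of their falls were in part set by the choice. The 31 nt form at plus 113342978 had 0, 0 and 0 counts in Miwi KO and 468, 443 and 913 in WT. It was lower in Miwi KO by at least 383-fold (with 3 counts over the group as the floor). The 30 nt forms at minus 113333617 and 113328362 had 0 counts in Miwi KO and 1009 and 937 in WT in sum, at least 212-fold and 197-fold lower, and the 33 nt form at plus 113349011 had 0 in Miwi KO and 909 in WT, at least 191-fold lower. These starts were not all lost. At 113342978, RNAs of 25 to 29 nt had 17, 26, 33, 21 and 27 counts in Miwi KO and 12, 28, 64, 40 and 232 in WT in sum, while at 113328362 the 27 and 28 nt forms had 4 and 1 counts in Miwi KO and 63 and 153 in WT.

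The 4 largest rises came from 2 starts. At plus 113353461, inside 1700016C19Rik, the 26 nt form had 309, 180 and 247 counts in Miwi KO and 2, 5 and 7 in WT (log2 change 6.36 ± 0.32 SE, edgeR adjusted p = 3.98e-84). The 25 and 27 nt forms of the same start rose by 5.95 and 5.31, and its 29 nt form had 39, 11 and 24 counts in Miwi KO and 107, 89 and 114 in WT. At minus 113323850 the 28 nt form had 168, 103 and 250 counts in Miwi KO and 5, 7 and 3 in WT (5.71 ± 0.32 SE). These places were picked among those with no overlap between the genotypes, so the separation of their libraries was set by the choice.

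The first base was read in the exons of 4930405N21Rik, Gm43353 and Aym1, which held 3.796% of cluster counts in Miwi KO and 3.11% in WT. A T stood at base 1 (the U that PIWI proteins favor) in 85.7%, 85.3% and 84.5% of counts in Miwi KO and 90.4%, 90.2% and 88.9% in WT. Among 29-32 nt RNAs of the minus strand it was 78.2%, 74.9% and 77.1% in Miwi KO and 92.6%, 92.4% and 91.1% in WT, without overlap (difference -15.3 percentage points, exact permutation p = 0.1), and among 25-28 nt RNAs 86.3%, 87.1% and 85.3% in Miwi KO and 86.7%, 87.7% and 85.2% in WT. The long RNAs left in Miwi KO thus began with T less often, over 593, 331 and 681 counts. With each place counted once the long class differed by -4.34 points. A stood at base 10, a mark of piRNAs made by reciprocal cutting, in 30.3%, 30.4% and 31.97% of counts in Miwi KO and 33.7%, 32.8% and 32.8% in WT. These values mix the strands. On the minus strand the mean for 25-28 nt was 30.64% in Miwi KO and 28.65% in WT, without overlap. For 29-32 nt it was 32.46% in Miwi KO and 30.83% in WT, with overlap. Long RNAs of the plus strand had A in 63.45% of counts in WT, over 649, 590 and 962 counts. The plus strand had 12, 8 and 13 long counts in Miwi KO in these exons, too few for a comparison.

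Annotated miRNA genes lie on the minus arm, Mir7229 at chr5:113324493-113324545 and Mir7230 at chr5:113337590-113337645. The mature sequences (RefSeq, GRCm38.p6) are shown with the seed, bases 2 to 8, in capitals, since both arms of miR-7229 share their starts with longer RNAs of the piRNA table.
mmu-miR-7229-3p: uACACAGAccagugacuuucugca
mmu-miR-7229-5p: uAGUAGACaucccuggauagc
mmu-miR-7230-3p: uUGAGUUGagacugucaguaggu
mmu-miR-7230-5p: aGACUGCUguuucucugaguggc
The 30 nt RNA that starts at the 5′ end of miR-7229-3p (113324516) is given next, with the 6 bases past the annotated miRNA in capitals.
piRNA 113324516: tacacagaccagtgactttctgcaCGCTTT
In the piRNA table this 30 nt form had 14, 11 and 23 counts in Miwi KO libraries and 75, 103 and 133 in WT libraries, the most of any length at this start in both genotypes. In the deposited small RNA table miR-7229-3p had 50, 21 and 61 counts in Miwi KO and 136, 167 and 214 in WT, while the piRNA table had 39, 19 and 43 counts at that start in Miwi KO and 125, 154 and 206 in WT. The counts of both tables thus lay close, and nearly all of those in the piRNA table were at 27 to 34 nt, beyond the annotated 24 nt. miR-7229-5p had 14, 10 and 5 counts in Miwi KO and 8, 12 and 27 in WT. At its start the piRNA table had 25, 14 and 16 counts in Miwi KO and 17, 18 and 61 in WT, with main forms of 28 nt in Miwi KO and 27 nt in WT. In the small RNA table miR-7230-5p had 22, 12 and 23 counts in Miwi KO and 24, 21 and 38 in WT, and miR-7230-3p 19, 8 and 14 in Miwi KO and 14, 15 and 26 in WT. At the starts of both miR-7230 arms the piRNA table had at most 7 counts in any library.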

How the data were processed

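The authors deposited 2 tables of raw counts per reference sequence and library, made with featureCounts v1.5.0-p2 per the file headers. The submitters' processing notes also name cutadapt, DESeq2 and build mm9. How reads were aligned, and how those with several matches were placed, is not given in the sources used here. Each entry of the piRNA table names a chromosome, position, strand and cluster, and its length is the indexed length minus 20 nt, used in place of the read length. Entries of the same position, strand and length were summed. In exons with GRCm38 sequence, T stood at base 1 of 88.4% of counts and at the neighboring bases of 26.6% and 14.4%, so positions were read as GRCm38, 1-based. Only the transcript sequences were used, since no genome sequence of this build was read.

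The quasi-likelihood test of edgeR 4.0.16 (R 4.3.3, Benjamini-Hochberg adjustment, filterByExpr at its minimum count 10 and total 15) was fitted on all clusters, bins or places of the table, always with the TMM factors of the cluster totals, and the values of this cluster were taken from it. The SE of a log2 change was derived from the edgeR test, as the absolute change over the square root of its F statistic. CPM are counts relative to these scaled totals, and the compared clusters are the closest 3 in mean CPM. Shares were compared with exact two-sided permutation tests. Alternative scales were DESeq2 1.42.0 factors and test, library size, miRNA totals with their TMM factors, and own factors (TMM factors of all tested units of that kind in the table). Other alternatives were filters, thresholds, bins and length limits, the replicate block and leaving out each library. Leaving out the highest 5′ end and the first 1 kb of the tail were chosen after seeing the data. The scripts were tested on simulated data. Named items were the 8 highest 5′ ends, 4 largest rises and 4 largest falls with a mean of at least 50 CPM in a genotype, the 3 highest bins per strand and all annotated genes. Members and lists were chosen with earlier results of these data known. Counts without molecular identifiers are not independent molecules, and columns of other samples were 0.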

Additional observations from a re-analysis of the deposited data

How the results depend on the processing

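Miwi KO libraries held fewer piRNA counts, which limits what can be seen of rare long RNAs, while miRNA totals overlapped between the genotypes. Reads that match several sequences may be placed at 1 of them, and the length is that of the reference entry. The length shift and both class directions kept their sign under every alternative run, but the shift in 29-32 nt share was -30.65 points with each place counted once, against -58.15, and the strand difference -2.44 points. The total was 0.0713 (log2) with library size alone, and the difference in table share, 0.274 percentage points, was -88.1 counts when taken per 100 miRNA counts. Places higher and lower in Miwi KO numbered 2982 and 7569 with a looser filter (20099 tested), 347 and 820 with a stricter one (1222 tested), and 622 higher in the DESeq2 test. Over the whole table the filters gave 53664 and 183455 of 433730, and 4652 and 13490 of 18873. Long bins lower numbered 20 with own TMM factors, 21 in the DESeq2 test, 95 of 95 at 500 bases and 30 of 30 at 2 kb. Short bins higher numbered 69 of 85 at 500 bases and 20 of 26 at 2 kb. Over the whole table, long bins lower numbered 977 and 940 of 2509, 3505 of 3852 and 1390 of 1671. Short bins higher there numbered 2241 of 3997 and 1086 of 2145. The long class of the bins at 113342001, 113330001 and 113336001 turned to 0.39, 0.34 and 0.75 with own TMM factors and to 0.38, 0.32 and 0.74 in the DESeq2 test, both of which centre the long class near 0. The 26 nt place at 113351252 turned to -0.0516 when scaled to miRNAs and to -0.14 in the DESeq2 test.

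With places counted once, T at base 1 differed by 0.0133 points (25-28 nt, minus) and 0.66 points (29-32 nt, plus), and A at base 10 by -3.01 points (25-28 nt, minus) and 6.30 points (29-32 nt, plus), where counts gave -0.33, -0.50, 1.99 and -9.60. Leaving out 1 library gave T at base 1 between -0.998 and 0.257 points (25-28 nt, minus) and between -5.58 and 9.33 points (29-32 nt, plus), which was above 0 without Miwi KO replicate 2 or WT replicate 1. It kept the total between -1.04 and -0.95, the long class between -2.94 and -2.82, the short class between 0.95 and 1.01, and the strand difference between -8.72 and -8.32 points. The cause of these changes was not tested.

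Same-numbered libraries deviated together with correlations of -0.0714, 0.0371 and 0.0201 over clusters and 0.00377, 0.0549 and 0.0764 over places. Pairs with different numbers ranged from -0.075 to 0.0614 over clusters and from -0.0765 to 0.0196 over places. No strong pairing by replicate number was thus seen. With 3 libraries per group these values cannot tell whether same-numbered libraries were prepared together. With the replicate block the total was -0.98, the classes -2.87 and 0.98, the places 1047 higher and 2035 lower, and the bins 53 and 38.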
